A study of Mus musculus with 9 samples.

Results

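The genes described here make, carry and read retinoic acid: Aldh1a1, Aldh1a2, Aldh1a3, Crabp1, Crabp2, Stra6, Rara, Rarb and Rarg. They were taken by gene symbol, and all 9 were found, each listed 1 time among the 19435 genes in the deposit. The study profiled messenger RNA in 9 mouse libraries, 5 of oviduct and 4 of tumor. Oviducts 1, 2 and 3 were normal tissue of genotype Dicer1+/D1693N, oviducts 4 and 5 were normal tissue of genotype Dicer1+/+, and tumors 1 to 4 were primary tumors of genotype Dicer1ko/D1693N. The D1693N allele is thus carried by the tumors and by 3 of the 5 normal oviducts, and the tumors carry a knockout allele beside it. DICER1 cuts microRNA precursors, and D1693N lies in its RNase IIIb domain. The labels state no treatment, and they give no age, strain or Cre driver and do not say whether each library came from a different mouse, so the p-values below measure the spread between these libraries.

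Retinoic acid is made from vitamin A. Retinol bound to the plasma carrier RBP4 enters cells through STRA6, is oxidized to retinal by retinol dehydrogenases such as RDH10, and retinal is then oxidized irreversibly to retinoic acid by the ALDH1A enzymes. CRABP1 and CRABP2 bind retinoic acid in the cytoplasm, the CYP26 enzymes break it down, and the receptors RARA, RARB and RARG act on DNA as heterodimers with RXR proteins. In the embryo retinoic acid takes part in the patterning of the Müllerian duct, from which the oviduct arises.

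The libraries held 8504993 to 12526078 counted reads in the oviducts and 8732190 to 11267144 in the tumors. Dicer1 stood at 904 to 1237 normalized counts in the oviducts and 576 to 1379 in the tumors, and gene counts do not separate its alleles. The 10 secretory epithelial markers summed to at least 100740 normalized counts in each oviduct and to at most 34613 in each tumor. Of these 10 genes, 3 were called lower in the tumors, 1 higher and 6 not, by the rule given below. Their sum thus does not describe each gene. The 8 measured markers of ciliated cells summed to at least 21673 in each oviduct and to at most 1030 in each tumor. The 10 fibroblast and stromal markers summed to 26165 to 52307 in the oviducts and to 133830 to 142340 in the tumors, and the 10 mesothelial markers to 5693 to 8421 and to 1262 to 3397. Tumor 4 stood apart in its fat cell markers. The 8 genes of that list summed to 89724 there, to 34 to 205 in the other tumors and to 2138 to 15700 in the oviducts, and Adipoq, the fat cell hormone, was at 5428 in tumor 4 and listed at 0 in tumors 1 to 3. All values below come from bulk tissue, where fewer cells of a type and less RNA per cell cannot be told apart.

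Against the 5 oviducts, the 4 tumors had more mRNA of the retinol receptor Stra6, the dehydrogenase Aldh1a2, the receptor Rarb and the binding protein Crabp2, and less of the dehydrogenase Aldh1a1. These 4 genes were called higher and this 1 lower, and the other 4 members were not called. A call needed a log2 difference of 1 or more in size and a limma p, adjusted over all genes, below 0.05. Of all genes, 6.53% were called higher and 12.1% lower. The median log2 difference was 1.34 over the 9 members and -0.05 over all genes. Tumors and oviducts overlapped for 8 of the 9 members. The exception was Crabp2, with every tumor above every oviduct, as were 10.8% of all genes, while every tumor lay below every oviduct for 16.8% of all genes and for 0 members. Normalized counts, used for levels here, are reads divided by the size factor of the library, and differences are tumor minus oviduct on the deposited log2 scale with their standard errors.

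**Figure D1:**
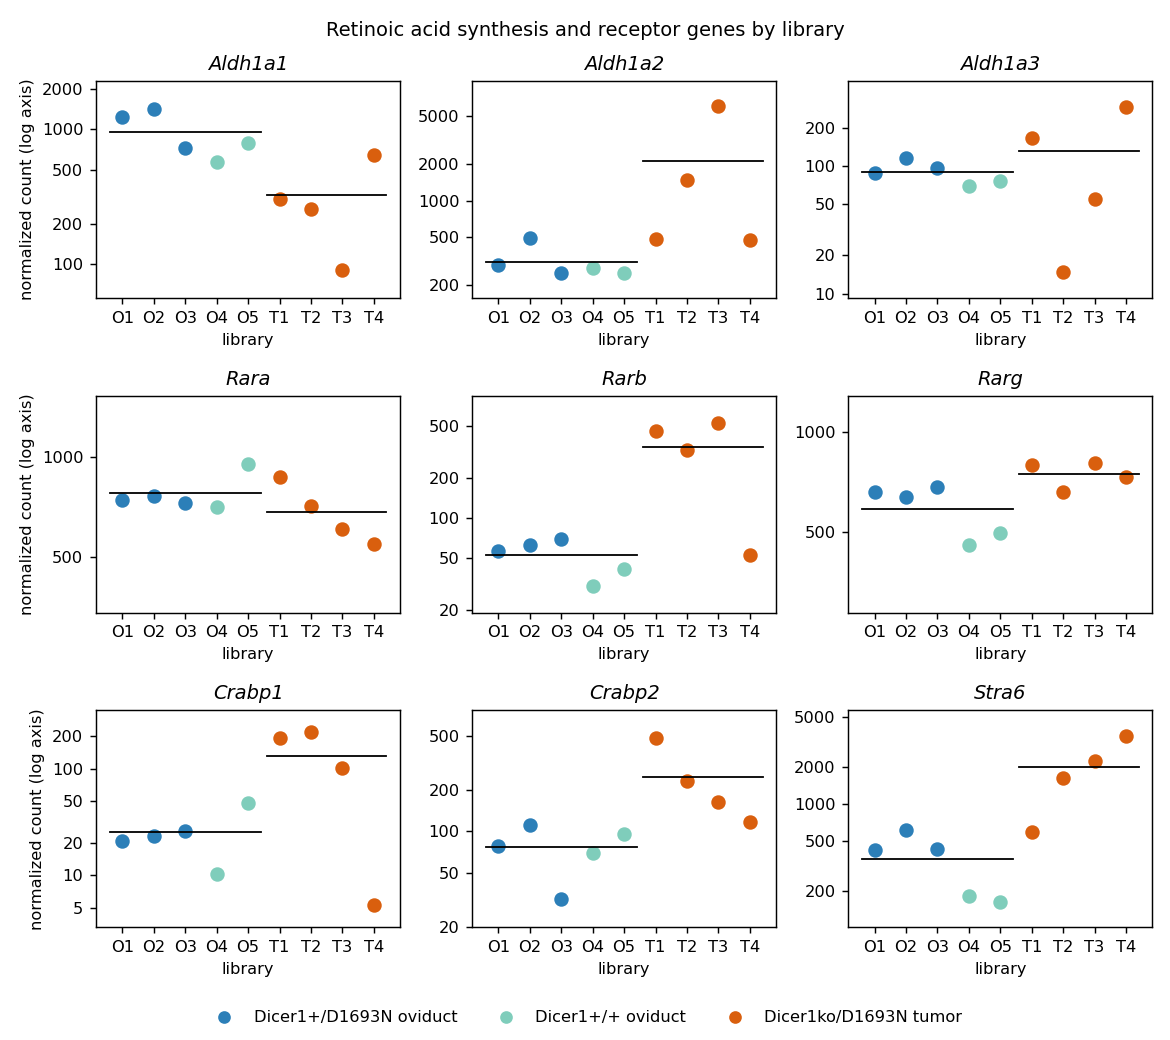
Normalized counts (log axis) of the 9 members in each library; O1 to O5 are oviducts, T1 to T4 tumors, points are libraries coloured by genotype and tissue, and black lines are the means of the 5 oviducts and of the 4 tumors. For Crabp2 every tumor lies above every oviduct, and tumor 4 lies at the oviduct level of Rarb and has the lowest Crabp1.

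Stra6 (ENSMUSG00000032327.14, GRCm38 chromosome 9, 58063788 to 58153996), the membrane receptor that takes up retinol from RBP4, stood at 425.3, 614.6 and 430.9 normalized counts in the Dicer1+/D1693N oviducts and at 182.4 and 163.0 in the Dicer1+/+ oviducts. In tumors 1 to 4 it stood at 590.4, 1628.4, 2216.8 and 3558.8. Tumors 2, 3 and 4 lay above every oviduct, and tumor 1 lay just below oviduct 2. The means were 363 ± 190 (SD, n = 5) in the oviducts and 1999 ± 1239 (SD, n = 4) in the tumors, 5.50-fold apart, and the log2 difference was 2.29 ± 0.52 (adjusted p = 0.0074). Tumor 4, with the highest Stra6, also had the highest sums of fat cell and macrophage markers. The 7 measured macrophage markers summed to 18511, 29251, 6341 and 48718 in tumors 1 to 4 and to 3700 to 5995 in the oviducts. The part of either cell type in this result was not tested. Without tumor 4 the log2 difference of Stra6 was 1.93 (adjusted p = 0.014).

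The retinal dehydrogenases moved in opposite directions. Aldh1a1 (ENSMUSG00000053279.8, chromosome 19, 20492715 to 20643465) stood at 1237.9, 1429.2, 724.4, 576.2 and 797.1 in oviducts 1 to 5 and at 305.9, 257.8, 90.1 and 648.9 in tumors 1 to 4. Tumors 1, 2 and 3 lay below every oviduct, while tumor 4 lay between oviducts 4 and 3. Aldh1a1 fell by 1.69 ± 0.46 on the log2 scale (adjusted p = 0.0181), with means of 953 ± 363 (SD, n = 5) and 326 ± 235 (SD, n = 4). Secretory, ciliated and mesothelial marker sums were lower in each tumor than in each oviduct, and their part in the fall of Aldh1a1 was not tested. Aldh1a7, a close paralog on the same chromosome, shares sequence with it: 3.06% of the 50-base stretches of Aldh1a1 transcripts also occurred in Aldh1a7. Aldh1a7 was at 62.8 ± 54.9 (SD, n = 5) and 55.6 ± 73.9 (SD, n = 4) and did not pass (adjusted p = 0.707).

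Aldh1a2 (ENSMUSG00000013584.5, chromosome 9, 71215789 to 71296243), the main retinal dehydrogenase of the early embryo, stood at 293.6, 485.9, 250.8, 278.3 and 249.0 in oviducts 1 to 5. In tumors 1 to 4 it stood at 484.6, 1488.7, 6146.1 and 471.1. Tumors 2 and 3 lay above every oviduct, and tumors 1 and 4 lay just below oviduct 2, the highest oviduct. The tumors spanned a 13.0-fold range and the oviducts a 1.95-fold range. Aldh1a2 rose by 1.93 ± 0.65 (adjusted p = 0.0442), from 311 ± 99.3 (SD, n = 5) to 2148 ± 2708 (SD, n = 4), and without tumor 3 the difference was 1.16 (adjusted p = 0.0404). Leaving out tumor 2, or each of the 5 oviducts in turn, ended the call (adjusted p 0.0565 to 0.097), as did limma-voom on recovered reads (0.0609). The fibroblast and stromal marker sum was higher in each tumor than in each oviduct, and its part in the rise of Aldh1a2 was not tested.

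Aldh1a3 (ENSMUSG00000015134.15, chromosome 7, 66390890 to 66427517), the third enzyme of the family, stood at 88.2, 116.0, 95.5, 69.2 and 75.9 in the oviducts. It stood at 166.1, 14.8, 55.2 and 289.2 in tumors 1 to 4. Tumors 1 and 4 lay above every oviduct and tumors 2 and 3 below every oviduct. The log2 difference was 0.01, with a 95% interval from -1.21 to 1.24 (adjusted p = 0.988), so a change of the group mean by more than 2-fold in either direction lies within the interval. The tumors ranged 19.6-fold from lowest to highest, against 1.68-fold in the oviducts.

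Per kilobase of exon, Aldh1a1 made up 45.8% to 62.8% of the summed counts of the 3 dehydrogenases in the oviducts and 0.665% to 32.7% in the tumors. Aldh1a2 made up 32.5% to 48.3% in the oviducts and 68.6%, 92.2%, 98.9% and 51.7% in tumors 1 to 4. Per kilobase, the leading enzyme was Aldh1a1 in oviducts 1, 2, 3 and 5 and Aldh1a2 in oviduct 4 and in all 4 tumors. In normalized counts not divided by length, Aldh1a1 lay above Aldh1a2 in oviduct 4 (576.2 and 278.3) and in tumor 4 (648.9 and 471.1). Which enzyme led in those libraries thus depends on the exon lengths used, 4.937 kilobases for Aldh1a1 and 2.264 for Aldh1a2. The sum of the 3 per kilobase was 255 to 529 in the oviducts, 2745 in tumor 3, 713 in tumor 2, and within the oviduct range in tumors 1 and 4, at 312 and 402. These shares use exon lengths from GENCODE M21, merged over all annotated transcripts of a gene. That may not be the annotation used for counting, and the shares are given as a description.

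**Figure D2:**
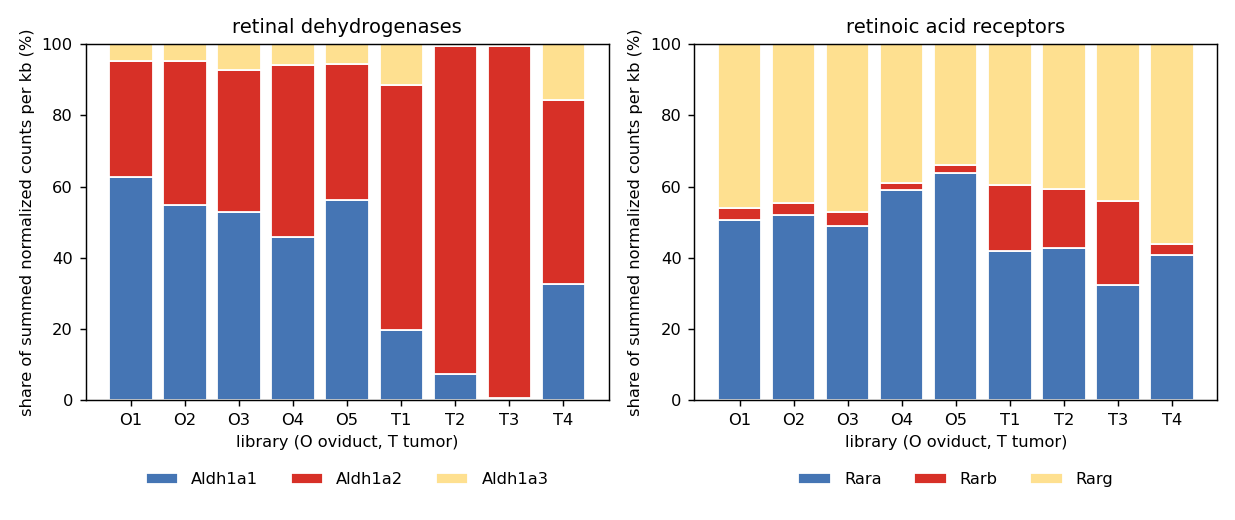
Share of each gene in the summed normalized counts per kilobase of its family, in percent, for the 3 retinal dehydrogenases (left) and the 3 retinoic acid receptors (right); each bar is 1 library, O1 to O5 oviducts and T1 to T4 tumors. Aldh1a2 takes 51.7% to 98.9% in the tumors, and Rarb takes 16.5% to 23.5% in tumors 1 to 3 and 3.25% in tumor 4.

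The binding proteins were measured at low counts in the oviducts. Crabp2 (ENSMUSG00000004885.5, chromosome 3, 87948666 to 87953376), which carries retinoic acid to the receptors, stood at 78.1, 112.3, 31.8, 69.2 and 96.0 in the oviducts and at 482.7, 233.9, 164.4 and 116.7 in tumors 1 to 4. The lowest tumor, tumor 4, lay just above the highest oviduct, oviduct 2. Crabp2 rose by 1.36 ± 0.40 (adjusted p = 0.0249), from 77.5 ± 30.4 (SD, n = 5) to 249 ± 163 (SD, n = 4). Leaving out oviduct 3, oviduct 4, tumor 1 or tumor 2 ended the call (adjusted p 0.0519 to 0.0573).

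Crabp1 (ENSMUSG00000032291.8, chromosome 9, 54764748 to 54773110), which is known for holding retinoic acid in the cytoplasm, stood at 21.2, 23.2, 25.9, 10.2 and 48.0 in the oviducts. It stood at 193.3, 219.2, 101.3 and 5.3 in tumors 1 to 4, the last resting on 5 reads. Tumors 1, 2 and 3 lay above every oviduct and tumor 4 below every oviduct, a 41.7-fold range between tumors. The log2 difference of 1.34 ± 0.64 did not pass (adjusted p = 0.139), and without tumor 4 it was 2.12 (adjusted p = 0.0011).

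Among the receptors only Rarb was called. The promoter of Rarb is shown because it holds a textbook element through which retinoic acid receptors act, a direct repeat of the receptor core motif with 5 bases between the copies (DR5). Direct repeats with 1, 2 or 5 bases between copies (DR1, DR2, DR5) were searched on both strands of 32851 RefSeq promoters (GRCm38.p6, 250 bases before to 50 after the start). DR5 was found in 0.0974% of them, DR1 in 0.222% and DR2 in 0.268%. The table held 15 promoters of 7 members, all but Aldh1a3 and Crabp2, and the only match among them was the DR5 of Rarb. Of the other pathway genes searched, Cyp26a1, the retinoic acid hydroxylase, had a DR5, on the strand opposite to the gene, and Bco1 a DR1. The 150 bases before the starts of Rarb (chr14:16575477-16575626, minus strand) and of Cyp26a1 (chr19:37697658-37697807, plus strand) follow, 5′ to 3′ on the strand of the gene, with the DR5 in capitals, 53 to 37 and 32 to 16 bases before the start.
Rarb: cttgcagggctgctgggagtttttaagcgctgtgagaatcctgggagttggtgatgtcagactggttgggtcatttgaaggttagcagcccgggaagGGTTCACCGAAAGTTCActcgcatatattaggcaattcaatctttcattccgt
Cyp26a1: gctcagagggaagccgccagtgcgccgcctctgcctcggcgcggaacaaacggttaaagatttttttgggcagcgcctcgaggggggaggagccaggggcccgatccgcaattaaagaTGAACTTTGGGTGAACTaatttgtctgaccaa
The matches describe the letters of these windows and do not show binding.

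Rarb (ENSMUSG00000017491.9, chromosome 14, 16430839 to 16819156) stood at 55.8, 62.9, 69.7, 30.7 and 41.3 normalized counts in oviducts 1 to 5. In tumors 1, 2 and 3 it stood at 460.3, 331.6 and 532.5, and in tumor 4 at 52.6. Tumors 1 to 3 lay above every oviduct and tumor 4 lay inside the oviduct range. Rarb rose by 2.03 ± 0.53 (adjusted p = 0.0155), from 52.1 ± 15.9 (SD, n = 5) to 344 ± 211 (SD, n = 4), and without tumor 4 by 2.69 (adjusted p = 4.38e-05). The call was lost with limma-voom on recovered reads (0.0527). Of the annotated exon bases of Rarb, 38.4% are also exon of Top2b or Gm48162 on the other strand, and whether counting used the strand is not given in the sources used here. Reads of Rarb and of these genes can then not be told apart where they overlap. Top2b, which codes for topoisomerase II beta, stood at 1681.5 to 1903.5 in the oviducts and at 3147.4, 1940.7, 3648.9 and 1732.1 in tumors 1 to 4, the same order of tumors as for Rarb. Its mean was 1.48-fold higher in the tumors, against 6.61-fold for Rarb, and its part in the Rarb counts was not tested.

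Cyp26a1, with the same kind of element in its promoter, was not called. It stood at 299.2, 322.7, 174.1, 139.9 and 1371.0 in the oviducts and at 99.1, 688.2, 128.3 and 66.3 in the tumors (-0.92 ± 0.71, adjusted p = 0.36). Tumors 1, 3 and 4 lay below every oviduct and tumor 2 inside the oviduct range.

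Rara (ENSMUSG00000037992.16, chromosome 11, 98927818 to 98974942), the most widely expressed of the receptors, stood at 742.3, 763.6, 729.4, 709.0 and 953.4 in the oviducts and at 869.2, 710.9, 608.0 and 546.9 in the tumors. Its log2 difference was -0.20, with a 95% interval from -0.55 to 0.16 (adjusted p = 0.378). Rarg (ENSMUSG00000001288.15, chromosome 15, 102234938 to 102257517), known from skin and skeletal development, stood at 659.7, 638.6, 683.6, 458.3 and 496.8 in the oviducts. In the tumors it stood at 797.3, 660.9, 806.1 and 734.1, with tumors 1, 3 and 4 above every oviduct. The log2 difference of Rarg was 0.35, with an interval from 0.01 to 0.69 (adjusted p = 0.105). Both intervals lie inside a 2-fold change.

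Per kilobase, Rarb was 2.11% to 3.88% of the summed receptor counts in the oviducts, 18.5%, 16.5% and 23.5% in tumors 1 to 3, and 3.25% in tumor 4. Rara was 49.0% to 63.7% in the oviducts and 32.4% to 42.8% in the tumors, without overlap, and Rarg 34.0% to 47.1% and 39.5% to 56.0%.

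The order of the members by level, in normalized counts per kilobase of exon, differed between the groups. In the oviducts it ran Aldh1a1 (193 ± 73.5, SD, n = 5), Rara (179 ± 22.7), Rarg (138 ± 24.0), Aldh1a2 (138 ± 43.9), Stra6 (62.3 ± 32.6), Crabp2 (58.6 ± 23.0), Crabp1 (32.1 ± 17.2), Aldh1a3 (19.3 ± 3.96) and Rarb (9.89 ± 3.03). The ranges of neighbours were separate between Rara and Rarg, Aldh1a2 and Stra6, and Aldh1a3 and Rarb, and overlapped between the others. In the tumors it ran Aldh1a2 (949 ± 1196, SD, n = 4), Stra6 (343 ± 213), Crabp2 (189 ± 123), Rarg (176 ± 15.8), Crabp1 (162 ± 121), Rara (157 ± 32.3), Aldh1a1 (66.0 ± 47.5), Rarb (65.4 ± 40.2) and Aldh1a3 (28.4 ± 26.7). All neighbours overlapped there.

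The tumors did not share one pattern over the 9 genes. Tumor 4 was highest of the tumors in Stra6, Aldh1a1 and Aldh1a3 and lowest of the tumors in Aldh1a2, Rarb, Crabp1, Crabp2 and Rara. Tumor 3 was highest in Aldh1a2 and Rarb and lowest in Aldh1a1. Tumor 1 had the highest Crabp2 and Rara and the lowest Stra6, and tumor 2 the highest Crabp1 and the lowest Aldh1a3. Without tumor 4, 5 members were called higher, with Crabp1 added, and 1 lower. Over all 19435 genes, those called higher also went from 1269 to 1585 without tumor 4, and those lower from 2356 to 2585.

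**Figure D3:**
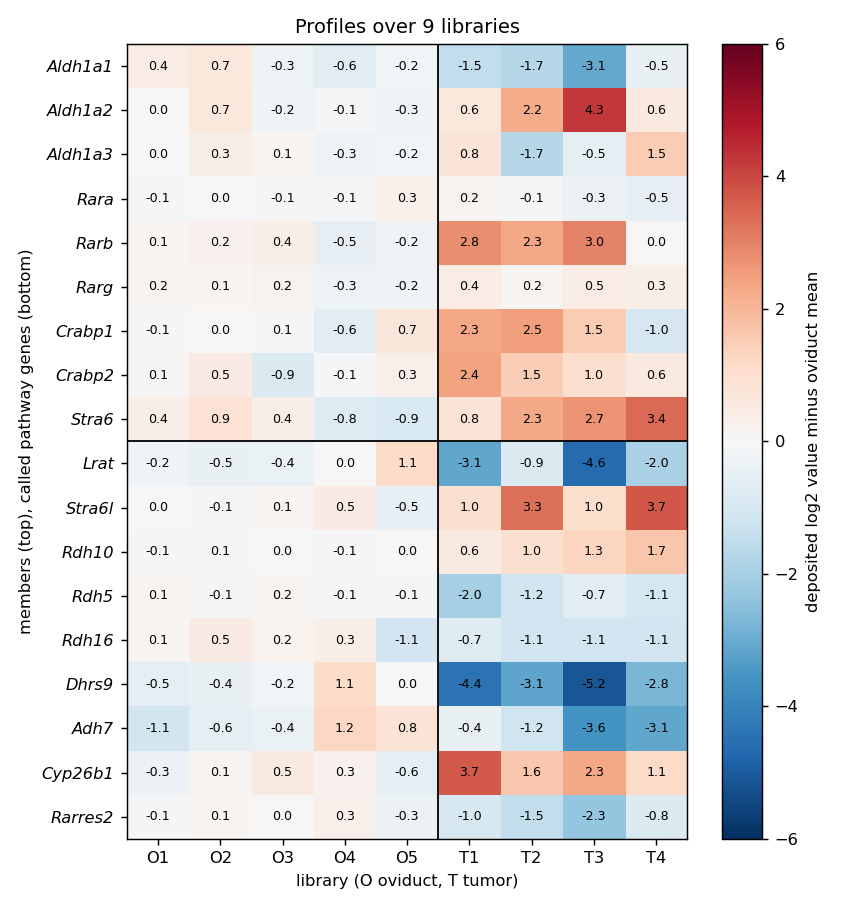
Deposited log2 value minus the oviduct mean of the gene, for the 9 members (top) and the 9 called genes of the wider pathway (bottom) in each library; O1 to O5 are oviducts and T1 to T4 tumors, and red is above and blue below the oviduct mean. Tumor 4 differs from the other tumors in Rarb and Crabp1, while Rdh10, Stra6 and Stra6l are highest in it.

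The wider retinoid pathway list held 51 genes, of which 45 were in the table, 3 called higher, 6 lower and 36 not called. Its median log2 difference was -0.12, beside -0.05 over all genes, and the shares of all genes called are those given above.

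In retinol transport and storage, 1 of 8 measured genes rose and 1 fell. Stra6l, a relative of Stra6 that also binds RBP4, stood at 1.12 to 11.8 normalized counts in the oviducts and at 21.4, 182.8, 23.6 and 252.4 in the tumors, above every oviduct (2.25 ± 0.58, adjusted p = 0.014). Against the Dicer1+/+ oviducts alone Stra6l was not called (2.24, adjusted p = 0.0867). Lrat, which esterifies retinol for storage, fell by 2.64 ± 0.66 on the log2 scale (adjusted p = 0.0126), and against the Dicer1+/D1693N oviducts alone it was not called (-2.27, adjusted p = 0.0581). Lrat stood at 202.0, 170.7, 176.1, 238.2 and 550.4 in the oviducts and at 12.6, 124.9, 0.0 and 47.3 in the tumors. Rbp4, the plasma carrier that liver and fat secrete, stood at 38.0 to 415.3 in the oviducts, at 16.5, 5.68 and 0.0 in tumors 1 to 3 and at 880.2 in tumor 4, the tumor with the high fat cell marker sum (adjusted p = 0.289, and a difference of -3.05 without tumor 4, adjusted p = 0.00373).

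Of 15 measured genes of retinol and retinal oxidation or reduction, 1 rose and 4 fell. Rdh10, the retinol dehydrogenase needed for embryonic retinoic acid, stood at 714.4 to 792.1 in the oviducts and at 1107.1, 1460.3, 1849.8 and 2389.4 in the tumors. Every tumor lay above every oviduct (1.12 ± 0.20, adjusted p = 0.00186), and without tumor 4 the difference was 0.93, under the minimum of 1. Dhrs9, a short-chain dehydrogenase that oxidizes retinol, stood at 554.8, 587.7, 721.4, 1748.9 and 836.2 in the oviducts and at 20.4, 73.8, 6.76 and 102.0 in the tumors. It fell by 3.87 ± 0.50 (adjusted p = 0.000258), with every tumor below every oviduct. Rdh5 fell by 1.23 ± 0.28 from 52.5 to 68.7 normalized counts in the oviducts to 3.88 to 30.4 in the tumors, and 25.6% of its exon bases overlap Bloc1s1; without tumor 1 its difference was -0.98. Adh7, an alcohol dehydrogenase that oxidizes retinol, fell by 2.08 ± 0.71 (adjusted p = 0.0464). Leaving out oviduct 2, 3, 4 or 5 or tumor 3 or 4 ended its call (adjusted p 0.0651 to 0.107). Against the Dicer1+/D1693N oviducts alone Adh7 was not called (-1.40, adjusted p = 0.19). Against the Dicer1+/+ oviducts alone Rdh5 (-1.12, adjusted p = 0.0759) and Rdh16 (-0.64, adjusted p = 0.3) were not called. Rdh16 had at most 15.0 normalized counts in any oviduct and, over the 4 tumors, 1 read, in tumor 1; it was called lower (adjusted p = 0.0332), and leaving out each of oviducts 1 to 4 or tumors 2 to 4 ended that call (adjusted p 0.058 to 0.0773). Dhrs3, which turns retinal back into retinol, was at 588 ± 93.4 (SD, n = 5) and 854 ± 187 (SD, n = 4), with a log2 difference of 0.51 under the minimum.

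Of the 3 enzymes that break down retinoic acid, Cyp26b1 rose. It stood at 24.6, 41.2, 59.7, 45.6 and 17.9 in the oviducts and at 692.4, 146.5, 256.7 and 101.0 in tumors 1 to 4, with every tumor above every oviduct (2.20 ± 0.48, adjusted p = 0.00594). Its mean was 7.92-fold higher in the tumors.

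Of the 11 receptor partners and coregulators, 0 were called by limma and 0 by limma-voom. At an unadjusted p under 0.05 in limma there were 3, beside 8175 of all 19435 genes. Rxra, a heterodimer partner of the receptors, was at 642 ± 101 (SD, n = 5) and 990 ± 256 (SD, n = 4), a log2 difference of 0.58 ± 0.20 (adjusted p = 0.0447) under the minimum of 1. Rxrb stood at 522 ± 42.6 and 538 ± 77.7, with a log2 difference of 0.03 and an interval from -0.27 to 0.34. Rxrg had at most 13.4 normalized counts in any library. Fabp5, which delivers retinoic acid to another nuclear receptor, stood at 76.2 to 762.5 in the oviducts and 164.4 to 1525.9 in the tumors (1.85 ± 0.71, adjusted p = 0.0708), and passed without oviduct 5 (2.37, adjusted p = 0.0149) and without tumor 3 (2.46, adjusted p = 0.0151).

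Of 13 measured textbook targets of retinoic acid, some of them also in the groups above, 0 were called higher and 2 lower, Lrat and Rarres2. By adjusted p alone, without the minimum difference, 2 were higher and 2 lower, beside 2446 and 3605 of all 19435 genes. With limma-voom 3 were called in either direction, beside 4111 of all genes. Rarres2, which codes for the chemoattractant chemerin, stood at 1273.9 to 1974.5 in the oviducts and at 810.9, 558.7, 305.1 and 913.9 in the tumors, and fell by 1.40 ± 0.28 (adjusted p = 0.00401). Of its exon bases 33.6% overlap Lrrc61 on the other strand. Rarb, itself a textbook target, is a member and not counted here. The target list holds none of the members and not Cyp26b1, so these counts cover only the listed genes.

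**Figure D4:**
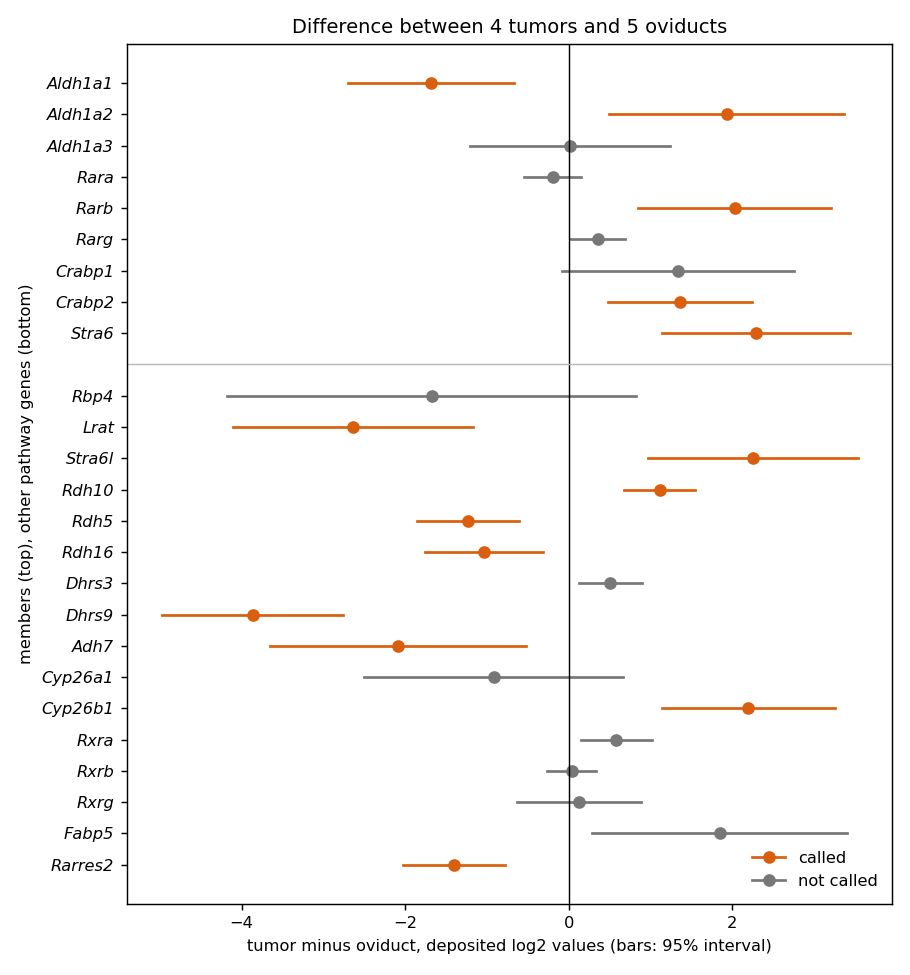
Tumor minus oviduct difference in deposited log2 value (points), with 95% intervals (bars), for the 9 members (top) and for the called genes and a fixed set of other pathway genes (bottom); orange marks called genes. The intervals of Rara, Rarg and Rxrb lie within -1 and 1, while that of Aldh1a3 reaches from -1.21 to 1.24.

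The tumors were also compared with each oviduct genotype, in a model of 3 groups. These comparisons share the 4 tumors, so they are not independent of each other. Against the Dicer1+/D1693N oviducts, 1 member was called higher, where 5.17% of all genes were, and 1 lower, where 11.4% were. They were Stra6 (1.74 ± 0.50, adjusted p = 0.0328) and Aldh1a1 (-1.95 ± 0.52, adjusted p = 0.0253), while Rarb was at 1.80 ± 0.62 (adjusted p = 0.0658) and Crabp2 at 1.45 ± 0.48 (adjusted p = 0.0544). Leaving out oviduct 1, oviduct 2 or tumor 2 ended both calls, and leaving out oviduct 3, 4 or 5 or tumor 3 ended that of Stra6. Without tumor 4 the count was 5, with Rarb, Crabp1 and Crabp2 added. Against the Dicer1+/+ oviducts, 2 members were called higher, where 4.07% of all genes were, and 0 lower, where 9.74% were. They were Stra6 (3.12 ± 0.56, adjusted p = 0.00555) and Rarb (2.38 ± 0.71, adjusted p = 0.049), while Aldh1a1 was at -1.29 ± 0.59 (adjusted p = 0.174). Stra6 kept its call unless oviduct 5 was left out, while Rarb kept it, of the 9 libraries left out in turn, when tumor 4 was. Without tumor 4 the count was 4, with Aldh1a1 lower and Crabp1 higher added. For both genotype comparisons, calls over all genes were not counted without tumor 4. The member counts of 5 and 4 thus have no share of all genes beside them.

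Within normal oviduct, 0 of the 9 members were called between Dicer1+/D1693N and Dicer1+/+ by limma, where 0.0206% of all genes were, and 0 by limma-voom. At an unadjusted p under 0.05 there were 2 members, beside 534 of all 19435 genes. Stra6 was at 490 ± 108 (SD, n = 3) in the Dicer1+/D1693N oviducts and 173 ± 13.7 (SD, n = 2) in the Dicer1+/+ oviducts, with a log2 difference of 1.38 ± 0.59 (adjusted p = 1). Rarg was at 661 ± 22.5 (SD, n = 3) and 478 ± 27.3 (SD, n = 2), with a difference of 0.45 ± 0.16 (adjusted p = 1). The genotypes did not overlap for 4 of the 9 members, Stra6, Rarg, Rarb and Aldh1a3, all higher in Dicer1+/D1693N, and for 32.0% of all genes in either direction. The share of all genes was not counted by direction, so the shared direction of these members has no background beside it.

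For each called member, the genes closest in profile were sought among 9713 genes with a mean at or above the table median. Closeness was the root mean square difference of the deposited log2 values over the 9 libraries, each gene centred on its oviduct mean. Aldh1a1 was closest to Cldn15 (0.37), which is on the mesothelial marker list, Nuak2 (0.39) and Slc35e4 (0.41). Aldh1a2 was closest to Ccnd2 (0.51), Enpep (0.56) and Plxna2 (0.57). Ccnd2, which codes for cyclin D2, stood at 2240, 3168, 9391 and 1343 normalized counts in tumors 1 to 4, highest in tumor 3 like Aldh1a2. Rarb was closest to Fignl2 (0.35), H2afy2 (0.37) and Tbx3 (0.38), and Tbx3, a T-box transcription factor, stood at 2590, 1368, 2865 and 229.3 in the tumors. Crabp2 was closest to Twist1 (0.33), Adamts1 (0.34) and Plvap (0.38), and Twist1, a mesenchymal transcription factor, stood at 928.4, 432.7, 335.5 and 200.9, the order of tumors seen for Crabp2. Stra6 was closest to Enpp3 (0.54), and Sfrp1 stood at 0.63.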

How the data were processed

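The 9 libraries (5 oviducts, 4 tumors) were grouped by the genotype in the labels. Per the submitters' processing notes, FastQC 0.11.5, STAR 2.5.3a and HTSeq were used with GRCm38 (mm10). The authors deposited 1 table of normalized log2 values with a shared floor of 3.427, and its transformation is not stated. Undoing a variance-stabilizing transformation gave whole reads over a size factor for 100% of values (tolerance 0.05 reads). Every gene kept had at least 10 reads in total. Differences of genes with few reads, large ones included, are understated on this scale. Between tumors and oviducts, Stra6l was at 2.25 on this scale and 3.8 with limma-voom on recovered reads. Rdh16 was at -1.04 and -3.255.

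The deposited values were tested with limma 3.58.1 in R 4.3.3 (trend in the prior variance, two-sided, Benjamini-Hochberg over 19435 genes), in a 2-group model and a 3-group model with a shared spread; the fit was tested on simulated data. Positions, exon lengths and overlaps came from GENCODE M21, promoters from RefSeq. Members, lists and rules for named genes were chosen with earlier results of these data known: all members, every called gene of the pathway list and set genes (Rbp4, Rdh10, Dhrs3, Cyp26a1, Cyp26b1, Rxra, Rxrb, Rxrg, Fabp5). Some genes that these rules name are not reported here. Bloc1s1, Lrrc61, Top2b, Adipoq and Bco1 were named after their values or overlaps were seen. Of the other marker lists, mesothelium had 8 of 10 measured genes called lower, ciliated epithelium 8 of 8 lower and fibroblast and stroma 5 of 10 higher. Fat cells had 0 of 8 called. Smooth muscle had 3 of 7 lower, macrophages 5 of 7 higher, endothelium 5 of 6 higher and ovary 1 of 6 lower. Secretory epithelium is given above. Alternatives are given in the closing section. No batch is given in the labels.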

Additional observations from a re-analysis of the deposited data

Results flagged for a closer look

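In 6 cases a library lay far from the rest of its group by Dixon's test on the deposited log2 values, among 9 members and 17 other named genes in 2 groups each, 52 groups tested; chance marks about 5% of groups. Among the members these were Aldh1a2 in oviduct 2 (485.9 normalized counts, the other oviducts 249.0 to 293.6) and Rara in oviduct 5 (953.4, the others 709.0 to 763.6). Lrat was at 550.4 in oviduct 5 (the others 170.7 to 238.2). Rdh16 was at 0 in oviduct 5 (the others 8.93 to 15.0) and at 0.971, which is 1 read, in tumor 1 (0 in the other tumors). Rxrg was at 0 in tumor 1 (9.01 to 12.6 in the others). The last 3 rest on few reads.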

How the results depend on the processing

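Results for tumors against oviducts were recomputed under 17 alternatives. The 4 members called higher between tumors and oviducts were 2 with limma-voom on recovered reads, 1 with the Dicer1+/D1693N oviducts alone as controls, 2 with the Dicer1+/+ oviducts alone, and 2 to 5 leaving out each library; the 1 lower was 0 with the Dicer1+/+ oviducts alone. Stra6 kept its call under all 17, with differences from 1.74 to 3.12, Aldh1a1 under 16 (lost with the Dicer1+/+ oviducts alone), Rarb under 15, Crabp2 under 11 and Aldh1a2 under 6. Crabp1 gained a call under 1, without tumor 4. No called gene named here changed sign. The 3 pathway genes called higher were 5 under quantile normalization, 8 by adjusted p alone and 3 to 5 leaving out each library. Over the table, 1269 genes higher and 2356 lower became 2446 and 3605 by adjusted p alone, and 791 were higher with the Dicer1+/+ oviducts alone. Quantile normalization moved the median difference of all genes from -0.05 to 0.08. Against the Dicer1+/D1693N oviducts the 2 calls became 4 under quantile normalization and 0 to 5 leaving out each library; against the Dicer1+/+ oviducts the 2 became 1 with limma-voom, 1 without a trend in the prior variance and 0 to 4 leaving out each library. Nothing in the labels pairs libraries of the same number. Their deviations correlated at 0.107, 0.0392, -0.126 and -0.0756 (-0.155 to 0.144 for the other pairs). With the number as a replicate block, Aldh1a2 lost its call between tumors and oviducts (1.87). Oviduct 5 has no partner, so this fit leaves it out in effect. Against the Dicer1+/D1693N oviducts, 5 members were called with the block. That comparison rests on the pairs numbered 1 to 3, so tumor 4 is left out in effect too. Against the Dicer1+/+ oviducts the block leaves 1 pair, tumor 4 and oviduct 4, so no count is given. Why the member calls changed was not tested. In the comparisons with each oviduct genotype, calls over all genes were not counted with libraries left out or with the block. Nor were they under quantile normalization or without a trend in the prior variance. The member counts there thus have no share of all genes beside them. With 4 and 5 libraries, and 5 reads of Crabp1 in tumor 4, small differences could not be resolved.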
